A study of Mus musculus with 12 samples.

Results

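The AP-1 and BATF factors described here are 9 genes, *Batf*, *Batf3*, *Jun*, *Junb*, *Jund*, *Fos*, *Fosb*, *Fosl1*, and *Fosl2*, taken by name from the 26608 genes counted in each library. The choice was made with earlier results of these data known. RNA sequencing counted their transcripts in CD4+ YFP(FOXP3)- T cells, sorted at 14 weeks of age from spleen and from cervical and inguinal lymph nodes, with 4 libraries in each of 3 groups. WT mice carried *Foxp3Cre* and intact *Tet* genes, and the other groups carried *Foxp3Cre* with floxed alleles of *Tet2* and *Tet3* (*Foxp3Cre Tet2/3 flox/flox*), so every group had the Cre. The floxed genes encode enzymes that oxidize methylated cytosine in DNA. DKO-moderate and DKO-severe mice shared this genotype and age and were set apart by the number of leukocytes in spleen and lymph nodes, so the comparison between them is one between mice sorted by that outcome. The study reported a larger share of females among its DKO-severe mice than among its DKO-moderate mice. The labels do not give the sex of the mice sequenced here, so sex and severity cannot be told apart. Cre and YFP follow *Foxp3* in these mice, and this Cre has been described as leaky, so some deletion outside Treg cells is possible. The sorted YFP-negative cells can hold conventional cells, with or without stray deletion, and former Treg cells. In such bulk libraries, fewer cells of a type and less RNA per cell cannot be told apart.

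AP-1 is a dimer of basic leucine zipper (bZIP) proteins, usually a JUN protein paired with a FOS protein, which binds the TPA response element in DNA. *Jun*, *Fos*, *Fosb*, and *Junb* are immediate early genes, transcribed within minutes of antigen receptor or stress signals through MAP kinases and silenced again soon after, whereas *Jund* is transcribed more steadily. BATF and BATF3 lack a transactivation domain, pair with JUN proteins in place of FOS, and bind composite elements together with IRF4 or IRF8, and BATF is required in CD4+ T cells for Tfh and Th17 differentiation.

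The region just before the start of transcription is shown for 5 members, because *Fos*, *Fosb*, *Jun*, and *Junb* were lower and *Batf* was higher in DKO-severe than in WT. The sequences run from 150 bases before to 30 bases after the start, are those of RefSeq on GRCm38.p6 (the build of the count files, mm10), and were matched for 8 of the 9 members (not *Fosl1*). The *Jund* entry belongs to another start, upstream of the gene as annotated, and was left out, and those of *Batf3* and *Fosl2* belong to starts inside the annotated gene. Among the sequences shown, the starts of *Batf* and *Fosb* also lie a short way inside the annotated gene, and that of *Junb* lies a short way upstream of it. Capitals mark TGACG, the core of the cAMP response element, and in *Jun* the sequence TGACATCA, a variant of that element.
Fos, chr12:85473740-85473919, + strand: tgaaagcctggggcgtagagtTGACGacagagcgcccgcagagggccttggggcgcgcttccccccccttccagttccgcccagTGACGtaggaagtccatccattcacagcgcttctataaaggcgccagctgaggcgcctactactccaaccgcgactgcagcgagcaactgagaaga
Fosb, chr7:19310016-19310195, - strand: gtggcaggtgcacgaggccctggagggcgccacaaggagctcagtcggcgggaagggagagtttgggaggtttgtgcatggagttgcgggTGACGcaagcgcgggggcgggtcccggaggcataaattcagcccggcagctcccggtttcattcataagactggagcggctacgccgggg
Junb, chr8:84978719-84978898, - strand: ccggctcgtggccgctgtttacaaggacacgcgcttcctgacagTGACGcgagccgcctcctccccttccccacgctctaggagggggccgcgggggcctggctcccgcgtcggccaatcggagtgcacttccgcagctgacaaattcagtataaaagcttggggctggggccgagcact
Jun, chr4:95052193-95052372, - strand: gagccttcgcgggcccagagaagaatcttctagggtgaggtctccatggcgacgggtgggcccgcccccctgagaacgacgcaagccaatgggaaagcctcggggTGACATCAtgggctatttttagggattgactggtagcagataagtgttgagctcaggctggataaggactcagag
Batf, chr12:85686570-85686749, + strand: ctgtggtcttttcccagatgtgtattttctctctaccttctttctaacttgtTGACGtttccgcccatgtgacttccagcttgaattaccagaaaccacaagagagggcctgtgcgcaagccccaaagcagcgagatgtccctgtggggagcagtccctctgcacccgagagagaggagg

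Within 250 bases before and 50 after the start, on either strand, TGACG was found in *Fos* at positions -129 and -66, in *Fosb* at -60, in *Junb* at -106, and in *Batf* at -98. It was present in 20.91% of 32544 promoter windows, and the full element TGACGTCA, which contains it, in 1.8%. TGACATCA was found in *Jun* at -45 and in 3.37% of all windows. The full element, the TPA response element with any central base (TGANTCA, in 7.79% of windows), and the CArG box bound by serum response factor (in 1.64%) were not found in the windows of the remaining 7 members, which says only that these letters are absent there. A match is a description of the sequence and not evidence of binding.

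The members also differ in how they are built. *Jun* and *Jund* are each a gene of 1 exon in the GENCODE annotation of GRCm38. *Fos*, its relative *Jdp2*, and *Batf* lie in that order on the + strand of chromosome 12, at 85473890-85477273, 85599027-85639878, and 85686669-85709087. *Jund* lies on chromosome 8 at 70698949-70700616, *Fosl2* on chromosome 5 at 32135801-32157842, *Fosl1* on chromosome 19 at 5447547-5455946, and *Batf3* on chromosome 1 at 191097847-191108945. In the annotated 3′ UTRs, the pentamer ATTTA, the core of AU-rich elements that speed the decay of immediate early transcripts, occurred 4 times in *Fos* (4.91 per kb, including the overlapping pair ATTTATTTA), 4 times in *Jun* (3.24 per kb, 2 of them in ATTTAtaatcataggaaagATTTA), and 2 times in *Junb* (4.12 per kb). *Fosl2* had 8 in a long 3′ UTR (1.72 per kb), *Jund* 1, *Fosl1* 1, *Fosb* 1 (0.47 per kb), and *Batf* and *Batf3* had none. Over 17257 genes the median was 1.34 per kb.

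Reads on genes ranged from 29254260 to 42133536 per library, and levels are given as CPM, reads scaled to a fixed library size, after TMM scaling. Summed levels of 8 T cell markers such as *Cd3e* and *Cd28* ranged from 4410.4 to 5019.4 CPM in WT, from 5147.6 to 5262.8 in DKO-moderate, and from 4225.8 to 4660.6 in DKO-severe. Gene-level *Tet2* counts were 43.3 to 62.2 CPM in WT and 56.7 to 65.8 in DKO-severe, and *Tet3* counts 167.4 to 210.4 and 87.8 to 102.5. These counts do not separate the floxed exons. *Foxp3* itself, the gene sorted against, was at no more than 3.1 CPM in any library. DKO-severe libraries also held transcripts of other cells. The 8 neutrophil markers, such as *S100a8* and *Ngp*, summed to at most 2.1 CPM in WT and 3.69 in DKO-moderate. In DKO-severe 1 to 4 they summed to 2242.4, 822.7, 23.0, and 9.45 CPM, and all 8 were higher than in WT. Of these, *Ltf*, *Camp*, and *Retnlg* averaged at most 0.05 CPM in WT and in DKO-moderate. They were kept for testing only through their reads in DKO-severe, so their rise is a description. The 8 B cell markers summed to 390.3 CPM in DKO-severe 2, 233.8 in WT 3, and at most 94.1 in the other libraries, and none of the 8 differed between groups by edgeR's test at an adjusted p under 0.05. Results are therefore also given with DKO-severe 1 and DKO-severe 2 left out together, a choice made after the values were seen. The 7 Tfh markers summed to 163.4 to 323.5 CPM in WT, against 632.1 to 1518.7 in DKO-moderate and 1500.7 to 2334.4 in DKO-severe, and the 7 naive T cell markers to 4399.2 to 5101.0, 2462.7 to 3924.9, and 1655.2 to 2230.6.

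The family split into genes that were lower and genes that were higher in the knockout groups. In DKO-severe, *Jun*, *Junb*, *Jund*, *Fos*, and *Fosb* were lower than in WT and *Batf*, *Batf3*, and *Fosl2* were higher, by edgeR's quasi-likelihood test at a threshold of 0.05, with p-values adjusted after Benjamini and Hochberg across the 16035 genes tested. These 8 of 9 members stand beside 52.6% of all tested genes that passed the same threshold, 26.6% higher and 25.9% lower. In DKO-moderate, *Batf* was higher than in WT and *Junb* and *Jund* were lower, 3 of 9 members beside 17.1% of all genes (12.3% higher and 4.74% lower). Between DKO-severe and DKO-moderate, DKO-severe had less *Jun*, *Junb*, and *Fos* and more *Fosl2*, 4 of 9 members beside 20.1% of all genes (9.41% higher and 10.7% lower). The comparisons with WT share the 4 WT libraries. When DKO-severe 1 and DKO-severe 2 were left out, 6 members passed against WT, beside 42.3% of all genes in that fit, and 2 against DKO-moderate, beside 13.5%. With terms for the neutrophil and B cell markers in the fit, *Batf* and *Jund* passed against WT in DKO-severe, beside 13.0% of all genes, and in DKO-moderate, beside 14.0%. No member passed between the knockout groups in edgeR with these terms, adjusted or at an unadjusted p under 0.05, beside 0.181% of all genes. The neutrophil markers summed to at most 3.69 CPM in every WT and DKO-moderate library and to at least 9.45 in every DKO-severe library. Their term therefore largely follows the DKO-severe group. A call of DKO-severe lost in this fit cannot tell neutrophil transcripts apart from the group.

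**Figure D1:**
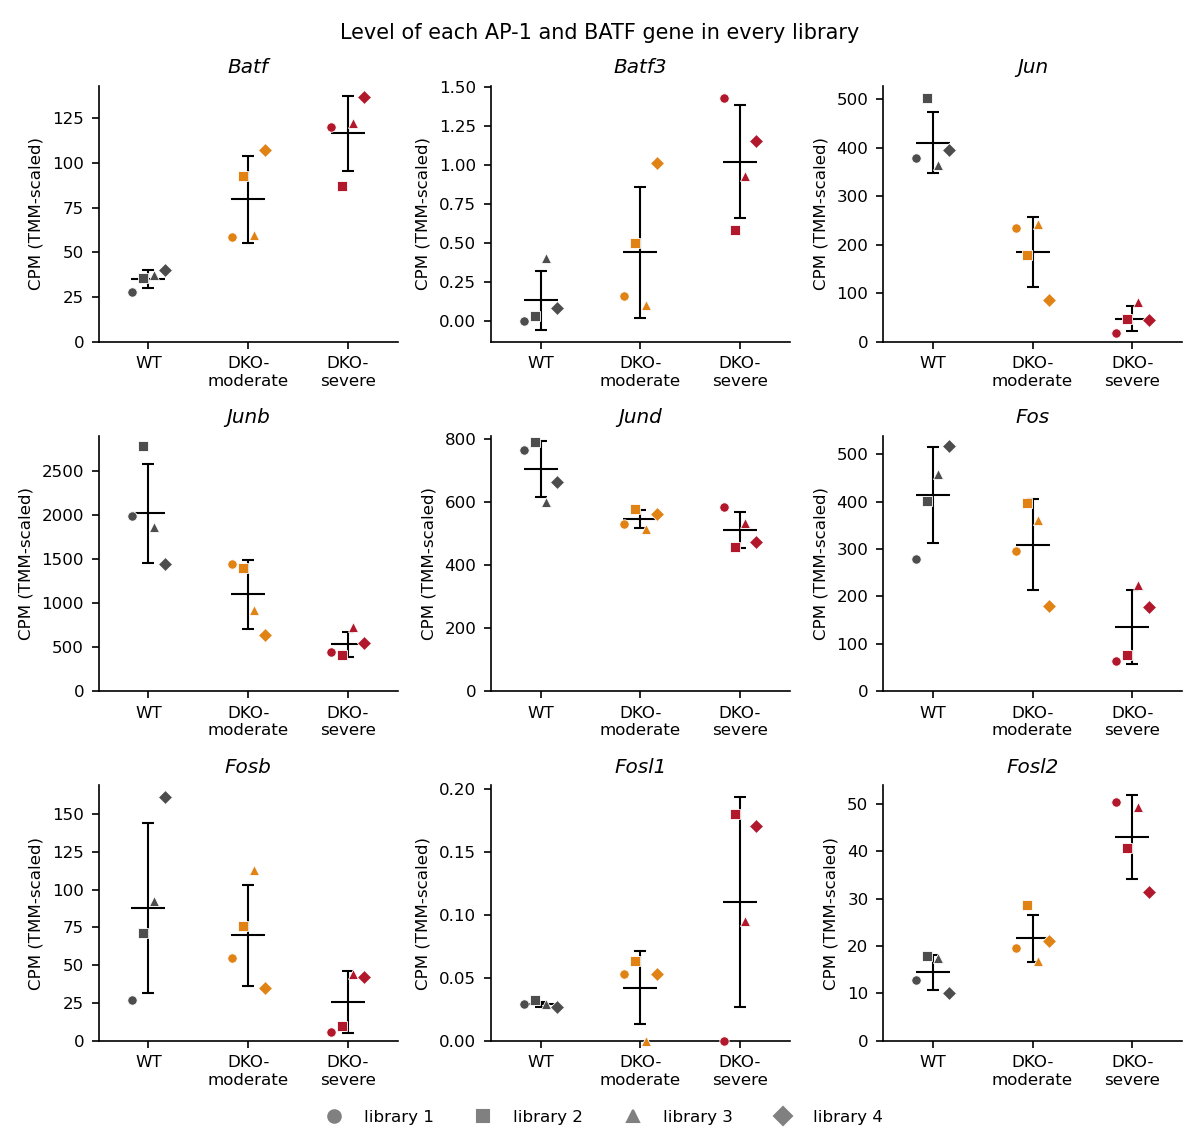
Level of each of the 9 genes in CPM (vertical axis) in the 4 libraries of WT, DKO-moderate, and DKO-severe (horizontal axis). Points are libraries, with the marker shape giving the library number, and bars are the mean ± SD, which for *Batf3* runs below 0. *Jun*, *Junb*, *Fos*, and *Fosb* step down and *Batf* and *Fosl2* step up from WT to DKO-severe, and *Batf3* and *Fosl1* stay at or under 1.43 CPM in every library.

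*Jun*, which encodes c-JUN, a strong transactivator, fell the furthest. WT 1 to 4 held 379.6, 503.2, 364.0, and 396.0 CPM, DKO-moderate 1 to 4 held 233.8, 177.9, 241.7, and 85.9, and DKO-severe 1 to 4 held 17.1, 46.8, 80.8, and 44.0. The 3 groups did not overlap. The level in DKO-severe was 8.7-fold lower than in WT (log2 fold change -3.12 ± 0.42 SE, edgeR adjusted p = 9.69e-05) and 3.91-fold lower than in DKO-moderate (-1.97 ± 0.41, adjusted p = 0.0081). In DKO-moderate the difference from WT was -1.15 ± 0.39 (95% interval -1.93 to -0.38) and did not pass (adjusted p = 0.0642). An exact permutation test of these 2 groups gave its smallest possible two-sided value, p = 0.029. The difference passed in DESeq2 (adjusted p = 0.014), in limma voom (0.0403), and in edgeR with only the libraries of both groups (0.0224). In edgeR it also passed without DKO-severe 1, without DKO-severe 3, and without DKO-severe 1 and 2 together. It stayed uncalled in 6 of 10 alternative fits and in 10 of the 12 fits lacking a single library (adjusted p up to 0.148). DKO-severe 1, with the lowest *Jun* level, was the library with the most neutrophil transcripts, and without DKO-severe 1 and 2 the log2 fold change from WT was -2.68 (adjusted p = 0.000626). With the marker terms it was -1.67 (adjusted p = 0.114), and -0.69 against DKO-moderate (adjusted p = 0.641).

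*Junb*, whose product pairs with BATF in T cells, was the most abundant member in WT, also per length. Its levels were 1992.0, 2787.2, 1872.9, and 1441.9 CPM in WT, against 1447.5, 1400.7, 921.3, and 639.8 in DKO-moderate and 443.5, 412.9, 729.8, and 546.7 in DKO-severe. DKO-severe lay below every WT library, while DKO-moderate 1 lay just above WT 4 and DKO-moderate 4 lay within the range of DKO-severe. *Junb* was 3.79-fold lower in DKO-severe than in WT (log2 fold change -1.92 ± 0.29, adjusted p = 0.000176). It was 1.84-fold lower in DKO-moderate than in WT (-0.88 ± 0.28, adjusted p = 0.0485) and 2.07-fold lower in DKO-severe than DKO-moderate (-1.05 ± 0.28, adjusted p = 0.0224). The DKO-moderate call was lost when any of 8 libraries was left out (WT 1, 2, or 3, DKO-moderate 2, 3, or 4, or DKO-severe 1 or 4), with an adjusted p of up to 0.144 without WT 2. The call between the knockout groups was lost without DKO-moderate 1 and without DKO-severe 1, 2, or 4, and without DKO-severe 1 and 2 together that difference was -0.75 (adjusted p = 0.178). With the marker terms the DKO-severe difference was -1.61 from WT (adjusted p = 0.0748) and -0.72 from DKO-moderate (adjusted p = 0.544).

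*Jund*, a subunit linked to restraint of proliferation, moved least in DKO-severe. Its level was 765.1, 793.2, 600.4, and 663.1 CPM in WT, against 532.8, 577.5, 516.7, and 561.4 in DKO-moderate and 583.9, 459.3, 535.1, and 475.6 in DKO-severe. Every library of the knockout groups lay below every WT library, and the knockout groups overlapped. *Jund* was 1.37-fold lower in DKO-severe than in WT (log2 fold change -0.46 ± 0.11, adjusted p = 0.00349) and 1.29-fold lower in DKO-moderate (-0.37 ± 0.11, adjusted p = 0.0341). The difference between DKO-severe and DKO-moderate was -0.09, with a 95% interval from -0.3 to 0.12 (adjusted p = 0.559). Scaling by library size instead of TMM moves the median of all genes by 0.184 in DKO-severe and by 0.074 in DKO-moderate against WT, and under it the DKO-moderate call was lost, as it was without WT 1 or 2 and without DKO-moderate 1 or 3, and the difference between the knockout groups was 0.01.

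The level of *Fos*, which encodes c-FOS, was 279.6, 401.7, 458.0, and 516.2 CPM in WT, against 295.6, 397.9, 361.9, and 180.7 in DKO-moderate and 64.3, 75.8, 223.3, and 178.2 in DKO-severe. DKO-severe lay below WT throughout, and its libraries formed a lower pair (1 and 2) and a higher pair (3 and 4). *Fos* was 3.06-fold lower in DKO-severe than in WT (log2 fold change -1.61 ± 0.39, adjusted p = 0.00426). In DKO-moderate the difference from WT was -0.42 ± 0.38 (adjusted p = 0.468). DKO-severe was 2.28-fold below DKO-moderate (-1.19 ± 0.38, adjusted p = 0.0463). Without the lower pair, which is also the pair with the most neutrophil transcripts, the difference from WT was -1.0 (adjusted p = 0.0266) and that from DKO-moderate was -0.59 (adjusted p = 0.245). With the marker terms they were -0.34 (adjusted p = 0.729) and -0.11 (adjusted p = 0.958). The call against DKO-moderate was kept only without DKO-moderate 4 and without DKO-severe 3 among the fits leaving out a single library.

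*Fosb*, the closest relative of *Fos* in how it is induced, varied more within groups. Its levels were 26.7, 71.5, 92.3, and 161.2 CPM in WT, against 55.0, 75.8, 112.9, and 34.9 in DKO-moderate and 5.52, 9.89, 44.4, and 42.1 in DKO-severe. The groups overlapped, since WT 1 lay below 2 libraries of DKO-severe. *Fosb* passed in DKO-severe against WT (log2 fold change -1.78 ± 0.67, adjusted p = 0.041) but not in DKO-moderate against WT (-0.34 ± 0.65, adjusted p = 0.755) or between the knockout groups (-1.45 ± 0.66, adjusted p = 0.136). The call against WT was lost without WT 2, 3, or 4, without DKO-moderate 1 or 2, and without DKO-severe 1 or 2, and the value without WT 4 was -1.31 (adjusted p = 0.13). Without DKO-severe 1 and 2 together it was -0.98 (adjusted p = 0.215), and with the marker terms it was 0.56 (adjusted p = 0.728).

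*Fosl2*, which encodes FRA-2, a FOS-like protein without the strong transactivation domain of c-FOS, went the other way. Its level was 12.8, 17.8, 17.4, and 10.1 CPM in WT, against 19.6, 28.7, 16.9, and 21.0 in DKO-moderate and 50.4, 40.8, 49.3, and 31.4 in DKO-severe. All DKO-severe libraries lay above both other groups. *Fosl2* was 2.96-fold higher than in WT (log2 fold change 1.56 ± 0.22, adjusted p = 0.00013) and 1.99-fold higher than in DKO-moderate (1.0 ± 0.22, adjusted p = 0.0104). In DKO-moderate the difference from WT was 0.57 ± 0.22 (95% interval 0.14 to 1.0, adjusted p = 0.0942). The DKO-severe difference from WT was 1.51 with DKO-severe 1 and 2 left out (adjusted p = 0.00147) and 1.07 with the marker terms (adjusted p = 0.0953), which gave 0.54 against DKO-moderate (adjusted p = 0.529). *Fosl1*, which encodes FRA-1, was close to undetected, with 4, 6, and 17 reads summed over the libraries of WT, DKO-moderate, and DKO-severe. It passed the filter on low counts only through DKO-severe, and no library held more than 7 reads. *Fosl1* was tested with the other members and passed in no comparison in edgeR with all libraries. So few reads cannot show whether its level changed, and nothing is read from these tests.

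The level of *Batf* was 27.9, 35.7, 37.2, and 40.0 CPM in WT, against 58.6, 92.9, 59.8, and 107.0 in DKO-moderate and 119.9, 87.3, 122.1, and 137.1 in DKO-severe. Both knockout groups lay above WT in every library and overlapped each other. *Batf* was 2.26-fold higher in DKO-moderate than in WT (log2 fold change 1.18 ± 0.21, adjusted p = 0.00288) and 3.31-fold higher in DKO-severe (1.73 ± 0.21, adjusted p = 4.6e-05). The further difference between DKO-severe and DKO-moderate was 0.55 ± 0.2 (95% interval 0.15 to 0.95) and did not pass (adjusted p = 0.0747). Without DKO-severe 1 and 2 the difference from WT was 1.92 (adjusted p = 0.00015). Both calls against WT were kept in the 10 alternative fits and in the 12 fits lacking a single library. The difference between the knockout groups passed without DKO-moderate 4, without DKO-severe 2, in DESeq2 (0.62, adjusted p = 0.0216), and in limma voom (0.87, adjusted p = 0.00204). That difference stayed uncalled in 8 of the 10 alternative fits and in 10 of the 12 fits lacking a single library.

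*Batf3*, best known from cross-presenting dendritic cells but also induced in activated T cells, was rare. Its level was 0, 0.032, 0.4, and 0.082 CPM in WT, against 0.16, 0.5, 0.099, and 1.01 in DKO-moderate and 1.43, 0.58, 0.93, and 1.15 in DKO-severe, or 18, 64, and 150 reads summed per group. Every DKO-severe library lay above every WT library, and the log2 fold change was 2.94 ± 0.96 (adjusted p = 0.0217). This call was lost without WT 2, without WT 4, and without DKO-severe 1 and 2 (3.0, adjusted p = 0.0513), as it was with the marker terms (3.38, adjusted p = 0.187), and the value was 4.6 without WT 3, the WT library with the most *Batf3* reads. The differences of DKO-moderate from WT (1.74 ± 0.95, adjusted p = 0.226) and of DKO-severe from DKO-moderate (1.2 ± 0.87, adjusted p = 0.334) did not pass, although the former did without WT 3. The 9 dendritic cell markers summed to 33.6 to 67.5 CPM in WT, against 42.5 to 81.1 in DKO-moderate and 118.4 to 157.6 in DKO-severe. Of these, *Zbtb46* (0.38 CPM in WT and 8.83 in DKO-severe, adjusted p = 8.78e-05) and *Cst3* (39.4 and 125.2 CPM, adjusted p = 8.33e-05) rose, and the other 7 did not pass and averaged 0.084 to 4.49 CPM in DKO-severe. The part of such cells in the level of *Batf3* was not tested.

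**Figure D2:**
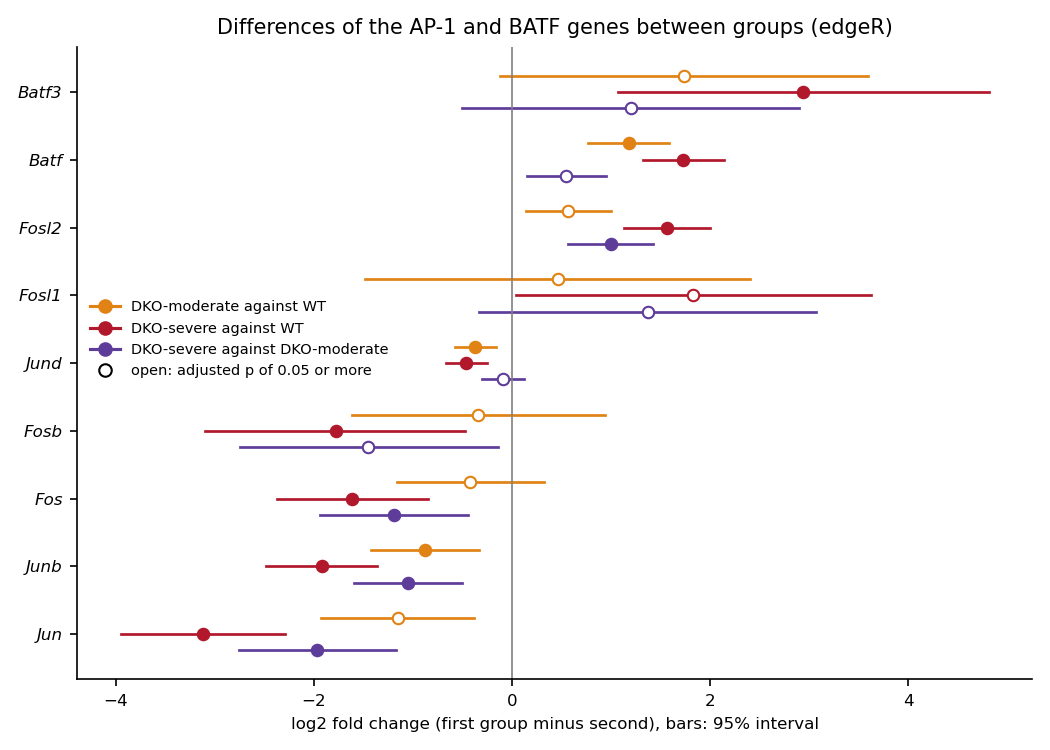
The log2 fold change of each member (horizontal axis) in the 3 comparisons, with bars for the approximate 95% interval (normal quantile) and filled points for an edgeR adjusted p under 0.05. *Batf* and *Batf3* lie right of 0 and *Jun*, *Junb*, *Fos*, and *Fosb* left of it in all 3 comparisons, and the interval of *Jund* between the knockout groups, -0.3 to 0.12, spans 0.

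To compare genes with each other, levels were divided by exon length (CPM per kb). In WT, *Junb* came first at 879.4 CPM per kb, followed by *Jund* at 422.9, *Fos* at 176.0, *Jun* at 128.8, *Batf* at 25.0, *Fosb* at 14.1, *Fosl2* at 1.5, *Batf3* at 0.081, and *Fosl1* at 0.014. The neighbours *Fos* and *Jun*, *Batf* and *Fosb*, and *Batf3* and *Fosl1* overlapped over the 4 libraries. In DKO-moderate, the order of the means was the same as in WT, and *Junb* (479.1) overlapped *Jund* (328.0) as *Jun* (58.0) overlapped *Batf* (56.6). In DKO-severe, *Jund* (307.8 CPM per kb) and *Junb* (231.7) overlapped at the top, and *Batf* (82.9) and *Fos* (57.6) overlapped next, above *Jun* (14.8). Below them, *Fosl2* (4.44), *Fosb* (4.08), and *Batf3* (0.64) overlapped in turn, and *Fosl1* came last (0.055).

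The sum of the 9 genes was 1647.8 ± 279.3 CPM per kb (SD, n = 4) for WT, 1066.7 ± 207.8 for DKO-moderate, and 704.1 ± 120.1 for DKO-severe. *Batf* made up 1.55% ± 0.375 of this sum in WT, against 5.61% ± 2.68 in DKO-moderate and 11.8% ± 1.59 in DKO-severe. *Jund* made up 25.9% ± 2.94, 31.7% ± 7.05, and 44.4% ± 7.12, and *Junb* 52.7% ± 6.28, 43.8% ± 8.02, and 32.6% ± 3.39. *Jun* took 7.85% ± 0.593 in WT and 2.06% ± 0.941 in DKO-severe. The 3 JUN genes together stayed at 74.5% to 90.9% in every library, and within them *Jund* had the larger mean share per length in DKO-severe. Without division by length, *Junb* averaged 533.2 CPM and *Jund* 513.5 CPM in DKO-severe, so which is larger depends on the exon lengths used. These are shares of transcripts, and protein was not measured.

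**Figure D3:**
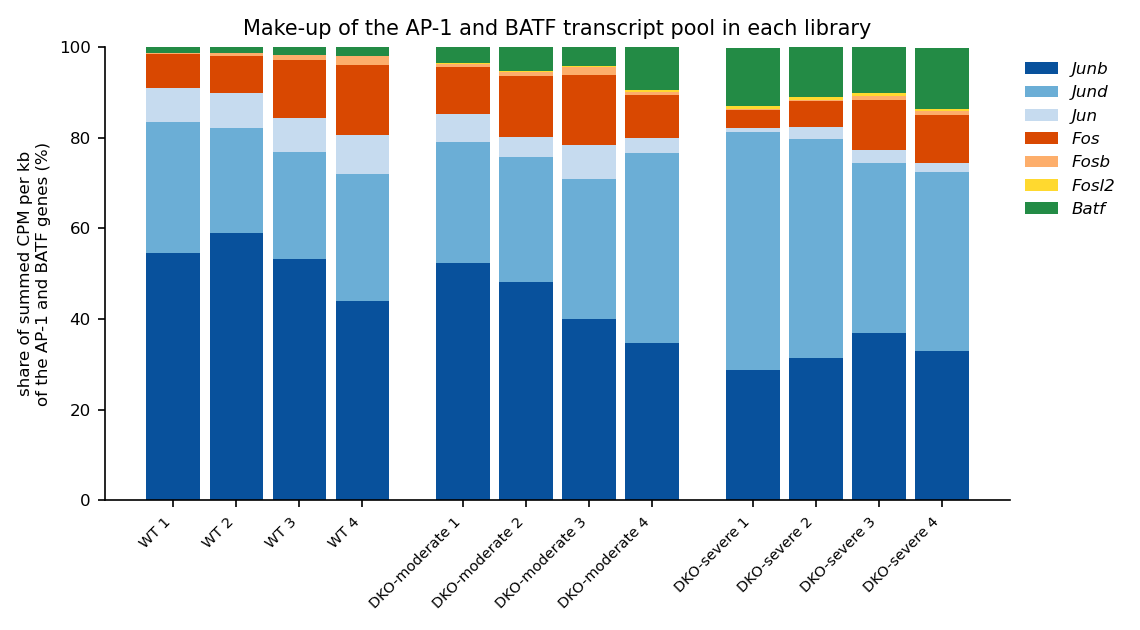
Share of the summed CPM per kb of the 9 genes (vertical axis, %) taken by each gene in each of the 12 libraries, with *Batf3* and *Fosl1* too small to draw. The *Batf* segment widens from 1.24% to 2.0% in WT to 10.1% to 13.5% in DKO-severe, and the *Junb* segment narrows from 44.0% to 59.0% to 28.9% to 37.0%.

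A ratio of 2 genes within a library does not depend on how libraries are scaled, so 4 ratios of reads per kb were compared by exact permutation tests, two-sided, with adjustment over 12 tests. Where both genes of a pair had already moved in opposite directions without overlap of the groups, their ratio had to separate too. The p of such a ratio is no further support. BATF and FOS proteins both pair with JUN. *Fos* exceeded *Batf* by 5.98 to 7.72 times in the WT libraries and by 1.01 to 3.62 times in DKO-moderate, whereas in DKO-severe the ratio of *Batf* to *Fos* was 3.12, 1.93, 0.915, and 1.29. The ratio of *Batf* to *Fos* was 11.3-fold higher in DKO-severe than in WT (log2 difference 3.5, p = 0.029, adjusted p = 0.043) and 3.0-fold higher in DKO-moderate (1.58, with the same exact p and adjusted p). Between the knockout groups, which met at DKO-moderate 4 (0.99), the difference was 1.91 (exact p = 0.057, adjusted p = 0.069).

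The ratio of *Batf* to *Jund* rose 4.52-fold in DKO-severe (log2 difference 2.18) and 2.82-fold in DKO-moderate (1.5), each with exact p = 0.029 and adjusted p = 0.043. *Fos* exceeded its relative *Fosl2* by 89.9 to 209.0 times in WT, 35.4 to 88.2 times in DKO-moderate, and 5.25 to 23.4 times in DKO-severe. The ranges of this ratio did not meet, and all 3 differences (-1.02 for DKO-moderate against WT, -3.35 for DKO-severe against WT, and -2.33 between the knockout groups) had exact p = 0.029 and adjusted p = 0.043. The ratio of *Junb* to *Jund* was 1.58 to 2.55 in WT and 0.551 to 0.989 in DKO-severe, a 2.76-fold fall (log2 difference -1.46, exact p = 0.029, adjusted p = 0.043). In DKO-moderate it ran from 0.826 to 1.97 and did not differ from WT by this test (-0.55, exact p = 0.143, adjusted p = 0.143). With 4 against 4 libraries no exact p can be below 0.029. This value was fixed by the levels of the single genes for *Batf* to *Fos* and *Fos* to *Fosl2* in DKO-severe against WT. It was also fixed for *Batf* to *Jund* in both knockout groups against WT.

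**Figure D4:**
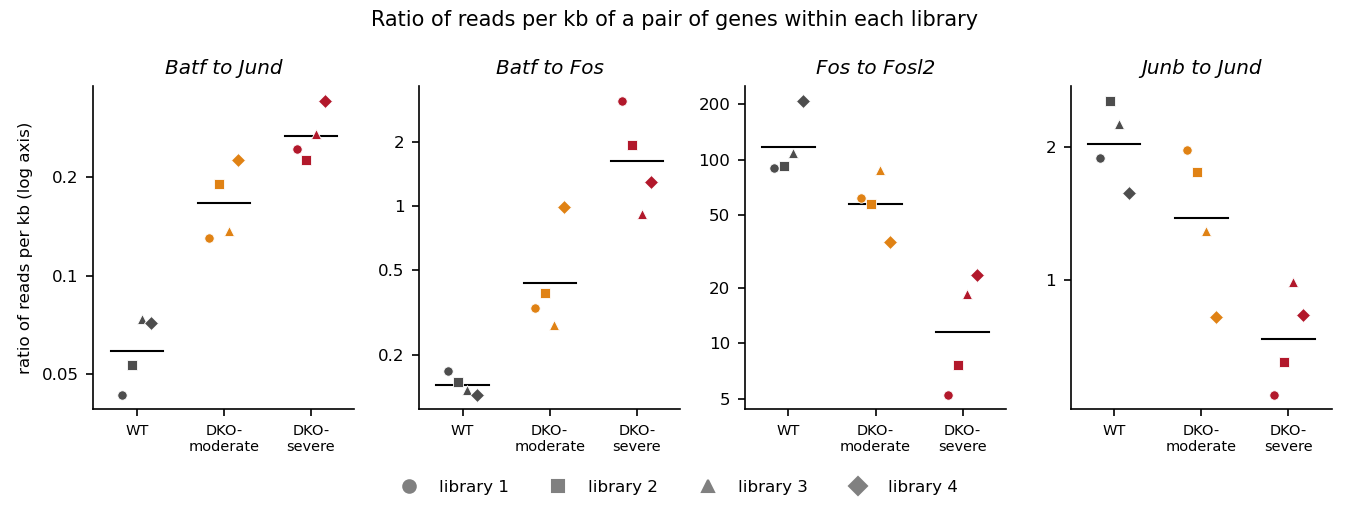
Ratio of reads per kb of 2 genes within each library (vertical axes, log scale) in the 3 groups, where points are libraries and lines the mean on the log scale. *Batf* to *Fos* lies at 0.13 to 0.167 in WT and at 0.915 to 3.12 in DKO-severe, and *Fos* to *Fosl2* falls from 89.9 to 209.0 in WT to 5.25 to 23.4 in DKO-severe.

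Within its group, DKO-moderate 4 had the highest *Batf* (107.0 CPM) and the lowest *Jun*, *Junb*, *Fos*, and *Fosb*, and its naive T cell markers were the lowest of the group (2462.7 CPM). In WT, library 4 had the highest *Batf* together with the highest *Fos* and *Fosb*. Over the 12 libraries, after each gene's log2 CPM was centred on its group means, Pearson's r was 0.94 for *Fos* with *Fosb*, 0.79 for *Batf* with *Batf3*, 0.73 for *Jun* with *Fos*, and 0.64 for *Jun* with *Junb*. *Batf* had an r of 0.19 with *Fos*, 0.24 with *Fosb*, -0.18 with *Junb*, and -0.42 with *Jun*, and *Jund* one of -0.27 with *Fos*. Among 9996 genes with a mean of at least 5 CPM, *Fos* and *Fosb* were each other's closest match. The closest to *Junb* were *Csrnp1* (0.95), *Ptp4a1* (0.94), *Tnfaip3* (0.92), and *Dusp1* (0.91), and the fifth of *Jun* was *Ppp1r15a* (0.93). The closest to *Batf* were *Gabarapl1* (0.97), *Nr2f6* (0.96), and *Icos* (0.96), the closest to *Batf3* was *Hk2* (0.94), and the closest to *Fosl2* was *Gadd45b* (0.89). The fifth gene for *Fosl2* was *Itgam* (0.82), an integrin of myeloid cells. These correlations describe 12 libraries that share depth and cell make-up, and no p is attached to them.

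The other bZIP factors did not move as a block. Of 34 tested, 13 were higher and 11 lower in DKO-severe than in WT (median log2 fold change -0.02, and -0.01 over all genes, with 10 higher and 10 lower when DKO-severe 1 and 2 were left out), 8 were higher and 4 lower in DKO-moderate, and 5 were higher and 8 lower between the knockout groups (DKO-severe against DKO-moderate). Counts in this list and those below stand beside the shares of all tested genes. These shares were 26.6% higher and 25.9% lower in DKO-severe against WT, and 12.3% and 4.74% in DKO-moderate. Between the knockout groups they were 9.41% higher and 10.7% lower. *Cebpd*, an inflammatory bZIP factor, rose from 0.18 CPM in WT to 4.03 in DKO-moderate (adjusted p = 0.00331) and 6.68 in DKO-severe (adjusted p = 0.000282). *Cebpe*, a factor of granulocyte development, averaged 1.78 ± 2.09 CPM in DKO-severe against 0.0072 CPM in WT, in libraries that also held neutrophil transcripts. *Cebpe* passed the filter on low counts only through DKO-severe. *Bach2*, a repressor that competes with AP-1 for its sites, fell from 146.1 to 50.8 CPM in DKO-severe (log2 fold change -1.53 ± 0.18, adjusted p = 4.22e-05), and *Dbp*, a clock output gene, from 35.0 to 11.9 CPM (-1.56 ± 0.16). *Jdp2*, which represses AP-1 and lies 121.8 kb from *Fos* and 46.8 kb from *Batf*, rose from 1.99 to 6.27 CPM (1.65 ± 0.4, adjusted p = 0.00417). It was picked for its position after its values were seen.

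Of 7 partners of AP-1 and BATF, 2 were higher and none lower in DKO-moderate than in WT, and 2 were higher and 1 lower in DKO-severe (median log2 fold change 0.26). *Irf4*, the partner of BATF on composite elements, rose from 34.1 ± 8.09 CPM in WT (SD, n = 4) to 124.5 ± 37.9 in DKO-moderate (log2 fold change 1.87, adjusted p = 0.00054) and to 283.6 in DKO-severe (3.06 ± 0.25, adjusted p = 6.47e-06). The rise from DKO-moderate to DKO-severe also passed (1.19, adjusted p = 0.00722). *Nfatc1*, which encodes an NFAT protein that binds DNA beside AP-1, rose from 181.1 to 336.0 CPM in DKO-moderate (adjusted p = 0.00134) and was at 353.5 CPM in DKO-severe (0.96 ± 0.14 against WT, adjusted p = 0.000139). *Ets1*, another partner, fell from 2395.1 to 1383.8 CPM in DKO-severe (-0.79 ± 0.13, adjusted p = 0.000453).

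Genes of the MAP kinase cascade, which induces *Fos* and phosphorylates c-JUN, were called in both directions. Of 34 tested, 11 were higher, 11 lower, and 12 not called in DKO-severe against WT (median log2 fold change -0.08), beside the 26.6% higher and 25.9% lower of all genes, 5 were higher and 3 lower in DKO-moderate, and 6 were higher and 2 lower in DKO-severe against DKO-moderate. *Rasgrp1*, which activates RAS downstream of the T cell receptor, fell from 626.6 to 184.7 CPM in DKO-severe (log2 fold change -1.76 ± 0.22, adjusted p = 5.81e-05). *Map2k6*, a p38 kinase kinase, fell from 19.3 to 5.66 CPM (-1.76 ± 0.3). The p38 kinase gene *Mapk12* rose from 1.92 to 31.0 CPM (4.01 ± 0.46, adjusted p = 3.33e-05), and *Mapk13*, with no read in WT, averaged 1.43 ± 1.76 CPM in DKO-severe. *Mapk13* passed the filter on low counts only through DKO-severe. With DKO-severe 1 and 2 left out, 11 were higher and 6 lower.

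The dual-specificity phosphatases that switch MAP kinases off were split as well, with 4 of 11 higher and 5 lower in DKO-severe than in WT (median -0.01), 2 higher and 2 lower in DKO-moderate, and 3 higher and 3 lower between the knockout groups. *Dusp1*, itself an immediate early gene, fell from 299.6 to 60.2 CPM (-2.31 ± 0.39, adjusted p = 0.000399), and *Dusp5* from 50.5 to 15.0 CPM (-1.75 ± 0.29). *Dusp4* rose from 6.09 to 57.0 CPM (3.22 ± 0.42, adjusted p = 7.89e-05) and *Dusp14* from 0.91 to 16.1 CPM (4.13 ± 0.43, adjusted p = 1.84e-05).

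The fall of *Jun*, *Junb*, *Fos*, and *Fosb* was not shared by all immediate early genes. Of 19 others, 6 were higher and 8 lower in DKO-severe than in WT (median log2 fold change -0.42, against -0.01 over all genes, and 4 higher and 7 lower with DKO-severe 1 and 2 left out), 2 were higher and 2 lower in DKO-moderate, and 2 were higher and 3 lower in DKO-severe against DKO-moderate. Like *Jun*, the mRNA decay factor gene *Zfp36* fell, from 438.0 to 155.1 CPM (log2 fold change -1.5 ± 0.2, adjusted p = 9.11e-05). *Egr2*, induced by T cell receptor signals, rose from 20.3 to 91.7 CPM (2.18 ± 0.25, adjusted p = 3.43e-05), and *Nr4a2* from 4.68 to 20.9 CPM (2.16 ± 0.37, adjusted p = 0.000466). *Egr1* and *Nr4a1*, named after their values were seen, were at 119.3 and 150.2 CPM in WT and at 146.5 and 116.7 CPM in DKO-severe, and neither passed (0.3 ± 0.17, adjusted p = 0.166, and -0.36 ± 0.21, adjusted p = 0.159).

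**Figure D5:**
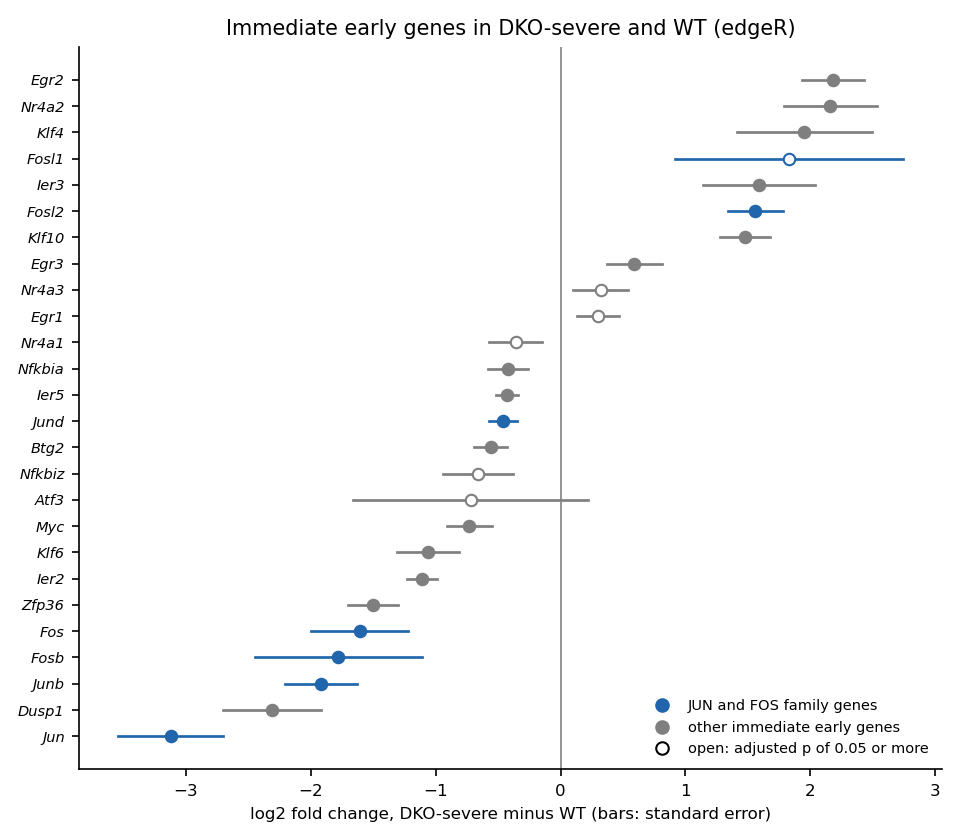
The log2 fold change between DKO-severe and WT (horizontal axis, bars the standard error) of 7 JUN and FOS family genes (blue) and 19 other immediate early genes (grey), ordered by value, with filled points for an edgeR adjusted p under 0.05. *Jun* lies lowest at -3.12, next to *Dusp1* at -2.31, and *Egr2* lies highest at 2.18.

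Heat shock genes, which can mark handling and stress in dissociated cells, were mostly not called. Of 10 tested, 1 was higher (*Hspb1*, 0.029 CPM in WT and 4.18 in DKO-severe) and 1 lower (*Hspe1*, -0.44 ± 0.15, adjusted p = 0.0268, lost without any 1 of the DKO-severe libraries, WT 1, or WT 3) in DKO-severe than in WT, with a median log2 fold change of -0.07. In DKO-moderate 1 was higher and none was lower, and 1 was lower in DKO-severe against DKO-moderate. *Hspa1b*, named after its values were seen, varied widely within groups. It ran from 2.13 to 46.5 CPM in WT, 5.3 to 181.8 in DKO-moderate, and 3.37 to 68.4 in DKO-severe. The part of handling in the levels of the AP-1 genes was not tested. Of 7 genes for the turnover of JUN proteins, 2 were higher and 2 lower in DKO-severe than in WT (median 0.11). *Ndfip1*, which activates the JUN ubiquitin ligase ITCH, rose from 225.8 to 478.8 CPM (1.08 ± 0.11, adjusted p = 1.37e-05), and *Rfwd2* (COP1), another ligase component for c-JUN, from 49.6 to 77.4 CPM (0.64 ± 0.14, adjusted p = 0.00205). *Itch* (-0.47 ± 0.15, adjusted p = 0.0195, lost without DKO-severe 3 or 4) and *Det1* (-0.46 ± 0.09, adjusted p = 0.00148) fell. In DKO-moderate 1 of the 7 was higher, and DKO-severe had 2 above DKO-moderate.

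Of 18 genes known as targets of AP-1 or BATF in T cells, 11 were higher and 1 lower in DKO-severe than in WT (median log2 fold change 2.11, and 9 higher and 1 lower, then *Tnf*, named after its values were seen, and not *Cd69*, with DKO-severe 1 and 2 left out), and 8 were higher and none lower in DKO-moderate (median 1.23, and 0.0 over all genes). Between the knockout groups 5 were higher in DKO-severe and none lower. Of all tested genes, 26.6% were higher and 25.9% lower in DKO-severe against WT, and 12.3% and 4.74% in DKO-moderate. *Il21*, the Tfh cytokine, rose from 8.31 ± 5.71 CPM in WT to 144.6 ± 75.6 in DKO-moderate (log2 fold change 4.12, adjusted p = 0.000347) and 278.8 in DKO-severe (5.06 ± 0.52, adjusted p = 1.63e-05). *Il17a*, a Th17 cytokine, was at 0.38 CPM in WT, 0.65 in DKO-moderate, and 0.12 to 60.4 CPM in the DKO-severe libraries (5.51 ± 1.4 against WT, adjusted p = 0.00601, and 2.99 without DKO-severe 3). The activation marker *Cd69* was the gene that fell, from 156.4 to 93.6 CPM (-0.74 ± 0.28, adjusted p = 0.0445), and *Il2* was at 0.88 ± 0.28 in DKO-moderate (adjusted p = 0.0479) and at 0.65 in DKO-severe (adjusted p = 0.0668). Each of these calls was lost for 10 of the 12 libraries when that library was left out, those of *Cd69* being kept without WT 4 or DKO-moderate 1 and those of *Il2* without DKO-moderate 2 or DKO-severe 1. Several of these genes are also Tfh markers, which rose in the same libraries, and the part of each in the other was not tested.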

How the data were processed

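RNA-seq libraries were prepared from 12 samples of sorted CD4+ YFP(FOXP3)- T cells with a directional kit. The read counts per gene were deposited by the authors, who aligned the reads to mm10 with STAR 2.7.11 (version from the submitters' processing notes), kept unique alignments, and counted them with HTSeq in reverse-stranded mode. Rows that name no gene held 18.53% to 23.73% of each library and were left out. From the counts, edgeR 4.0.16 in R 4.3.3 fitted the 3 groups jointly with TMM scaling, keeping genes whose reads in the libraries of some condition came to 10 or more (16035 of 26608). Each comparison was tested with edgeR's quasi-likelihood test and Benjamini-Hochberg adjustment, with a threshold of 0.05. Standard errors were derived from the log2 fold change and the F statistic. The fit was tested on simulated data.

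Within-library log2 ratios of reads per kb of exon (GENCODE vM21, with 0.5 added to each count) were compared by exact permutation tests in Python 3.11.15 with scipy 1.17.1. Correlations used log2 CPM with a prior count of 2. Gene symbols matched GENCODE for 22424 of the counted genes. Alternatives were DESeq2 1.42.0, voom in limma 3.58.1 with sample quality weights, other scalings, filters, and thresholds, only the libraries compared, the replicate number as a block, terms for the neutrophil and B cell markers, and leaving out each library.

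The members and lists were chosen with earlier results of these data known. From each list, the text names at most 4 genes, the pair of largest rises and the pair of largest falls in DKO-severe among those past the threshold, filled up with genes called in only 1 of both comparisons with WT, and for each member genes among the 5 most alike. Other genes, apart from those of the genotype and the sort, are marked as such where they are named. Libraries were treated as separate samples of a group, and p-values measure the spread between them. Libraries of a group differed by more than sampling noise (lowest chi-square 22.9 per degree of freedom).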

Additional observations from a re-analysis of the deposited data

Results flagged for a closer look

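In 4 members the change from WT in DKO-severe differed from that in DKO-moderate by edgeR's test of DKO-severe against DKO-moderate, which is the test of that difference because both share the WT libraries. The log2 difference, DKO-severe minus DKO-moderate, was -1.97 for *Jun* (adjusted p = 0.0081), -1.05 for *Junb* (0.0224), -1.19 for *Fos* (0.0463), and 1.0 for *Fosl2* (0.0104). Without DKO-severe 1 and 2 these differences were -1.53, -0.75, -0.59, and 0.94, and those of *Jun* and *Fosl2* passed. Among 27 groups of 4 libraries tested for a library far from the others, 1 stood out, *Fosl1* in DKO-moderate 3 at 0.0 CPM, where the other libraries of the group held 2 reads each. It rests on so few reads that nothing is read from it. By chance about 1 in 20 groups would stand out.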

How the results depend on the processing

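*Batf* kept both calls against WT in all 10 alternative fits and all 12 fits that left out 1 library, and *Jun* and *Junb* kept theirs in DKO-severe in all but the fit with terms for neutrophil and B cell markers. For DKO-moderate against WT, 3 members were called, against 4 in DESeq2, 4 in limma voom, 4 without DKO-severe 1 and 2, 2 with DESeq2 size factors, 2 without a filter, 2 with the marker terms, 1 with library size alone, 1 with an adjusted p under 0.01, 1 when the log2 fold change also had to reach 1 in size, and 1 to 4 when 1 library was left out. For DKO-severe against WT, 8 were called, 8 in DESeq2, 7 in limma voom, 2 with the marker terms, and 6 to 8 when 1 library was left out. For DKO-severe against DKO-moderate, 4 were called, 1 with an adjusted p under 0.01, 2 without DKO-severe 1 and 2, 2 to 5 when 1 library was left out, and 0 with the marker terms in edgeR (0 also at an unadjusted p under 0.05, and 5 in DESeq2 and 6 in limma voom without the terms). In that last fit 26 of all genes were called higher and 3 lower, against 1509 and 1708 without the terms. The neutrophil term largely follows the DKO-severe group, so calls lost there cannot tell neutrophil transcripts apart from the group. DESeq2 and limma voom also called more of all genes than edgeR. In DKO-moderate against WT, 2512 were higher and 1421 lower in DESeq2, and 2097 and 1337 in limma voom. In edgeR these were 1974 and 760. Between the knockout groups, 2497 were higher and 1672 lower in DESeq2, and 3047 and 3079 in limma voom.

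Directions turned for values that had passed no test or, for *Fosb*, one near its threshold. *Fosb* in DKO-moderate against WT was 0.03 in limma voom, 0.04 with the marker terms, and -0.67 to 0.13 when 1 library was left out (0.13 without WT 4). With the marker terms it was 0.56 in DKO-severe against WT and 0.52 against DKO-moderate. *Fosl1* in DKO-moderate was -0.45 in limma voom, and *Jund* between the knockout groups was 0.01 with library size alone. The cause of these turns was not tested. Library size alone moved the share of higher genes among all calls (50.7% to 66.5% in DKO-severe against WT, 72.2% to 81.2% in DKO-moderate, and 46.9% to 64.9% between the knockout groups, there 59.6% with DESeq2 size factors).

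The replicate numbers gave no sign of pairing the libraries. The correlation of deviations from group means had a median of -0.034 (-0.272 to 0.208) for the same number and 0.013 for different numbers. The labels give no litter or batch, and this check cannot settle whether libraries were paired. With the replicate block, 1 member (*Batf*) was called in DKO-moderate, 8 in DKO-severe, and 5 between the knockout groups. Of all 16035 genes in that fit, 1676 were higher and 525 lower in DKO-moderate, and 3883 and 3911 in DKO-severe. Between the knockout groups 1094 were higher and 1227 lower. The 8 called ratios kept their differences under the block (1.5 and 2.18 for *Batf* to *Jund*, 1.58 and 3.5 for *Batf* to *Fos*, -1.02, -3.35, and -2.33 for *Fos* to *Fosl2*, and -1.46 for *Junb* to *Jund*) with an adjusted p of 0.15, but 4 pairs cannot give a p below 0.125.

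Leaving out 1 library, with a smallest possible exact p of 0.057, the log2 differences were 1.35 to 1.62 in DKO-moderate and 2.03 to 2.28 in DKO-severe against WT for *Batf* to *Jund*, 1.19 to 1.8 and 3.18 to 3.77 for *Batf* to *Fos*, -1.23 to -0.75 and -3.69 to -2.97 for *Fos* to *Fosl2*, and -1.61 to -1.32 in DKO-severe for *Junb* to *Jund*. Between the knockout groups *Fos* to *Fosl2* ranged from -2.67 to -1.95. Without DKO-severe 1 and 2, with a smallest exact p of 0.133 and an adjusted p of 0.171, they were 2.37, 2.91, -2.49, and -1.16 against WT, and -1.47 for *Fos* to *Fosl2* against DKO-moderate. Adding 5 reads in place of 0.5 changed no call. For *Batf3* and *Fosl1*, with at most 150 reads summed in a group, depth limits what can be shown.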

Other observations

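Markers of further cell types were measured alongside the AP-1 genes. The 7 monocyte and macrophage markers summed to 21.7 to 212.5 CPM in WT, 64.0 to 120.6 in DKO-moderate, and 139.5 to 564.5 in DKO-severe, and 3 of the 7 rose in DKO-severe against WT by edgeR's test. The 5 plasma cell markers summed to 0.69 to 89.1, 2.84 to 26.1, and 51.2 to 197.8 CPM, and 2 rose. The 5 NK cell markers summed to 30.7 to 58.7, 93.7 to 234.9, and 63.4 to 200.5 CPM, and 1 rose in each knockout group. The 5 erythroid markers summed to 0.2 to 19.9, 1.28 to 11.5, and 11.3 to 46.9 CPM, and 1 rose in DKO-severe. Of the 2 CD8 T cell markers, which summed to 16.8 to 26.7, 3.13 to 8.52, and 1.03 to 13.2 CPM, 1 fell in each knockout group. No marker of these lists was at 0 in all libraries of a group, and the part of these cells in the levels of the AP-1 genes was not tested.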
